A study of Mus musculus with 6 samples.

Results

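Oligodendrocyte precursor and lineage genes were followed here as a set of 10 genes, Pdgfra, Cspg4, C1ql1, Gpr17, Neu4, Lhfpl3, Olig1, Olig2, Nkx2-2 and Myrf, taken by symbol from 24421 gene rows. All 10 were listed in every library and all 10 passed the filter on low values. Olfactory bulbs of 6 adult male mice on a C57BL/6 background, 3 of them controls and 3 Sox9 KO, gave 1 library each. Every mouse, control or KO, had received AAV-GFAP-iCre-P2a-TurboRFP in the bulb, a virus in which the astrocyte-active GFAP promoter drives the recombinase Cre and the fluorescent protein TurboRFP. Sox9 KO mice were Sox9fl/fl, so that Cre could delete the transcription factor Sox9, whereas controls were C57BL/6J mice with both Sox9 alleles intact. Cells were sorted by TurboRFP alone 4 weeks after the injection and were labelled olfactory bulb astrocytes. No second marker was used in the sort.

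Oligodendrocyte precursor cells are dividing glia of the adult brain that give rise to myelinating oligodendrocytes. They carry the receptor for platelet-derived growth factor (PDGF) and the proteoglycan NG2, and the transcription factors Olig1, Olig2 and Sox10 set their identity. As they commit they pass through a transient stage marked by Gpr17 and then switch on Myrf and the myelin genes. In the olfactory bulb, precursors are scattered through the layers, and Olig2 can also be transcribed in some astrocytes.

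Values are normalized read counts, that is, reads per gene divided by 1 size factor per library, and fold changes are KO over control on a log2 scale after adding 1. Reads on genes ranged from 18242129 to 86906527 per library, and KO replicate 2 was the deepest. Sox9 reads numbered 3548, 9535 and 3122 for controls and 53, 163 and 38 for KO. Astrocyte markers were present throughout but summed to 453190 to 503934 normalized counts per control library and 31861 to 40648 per KO library, whereas microglia markers summed to 141393 to 164574 and to 512873 to 618666, so that the KO libraries, labelled astrocytes, were low in astrocyte and high in microglia markers. A gene was called at a Benjamini-Hochberg adjusted p of 0.05 and 1.5-fold in limma. All 10 genes were called lower in Sox9 KO and none was called higher, where 28.8% of all 18413 genes tested were called lower and 22.2% higher. In 9 of the 10 genes all KO libraries lay below all controls, as in 34.7% of all genes tested, while 32.4% of all genes had every KO library above. The median log2 fold change was −2.90 over the 10 genes and −0.07 over all genes tested. In sorted bulk RNA, fewer cells of a type and less RNA per cell cannot be told apart. The 10 genes were lower under every scaling tried, but the balance of all calls was not fixed, with 56.4% of calls lower as deposited, 43.5% after quantile normalization, 67.8% with libraries scaled to the same total and 71.5% when the ribosomal RNA precursor Rn45s was left out of that total. The median of all genes then stood at 0.21, −0.30 and −0.38, and that of the 10 genes at −2.39, −3.13 and −3.21.

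**Figure D1:**
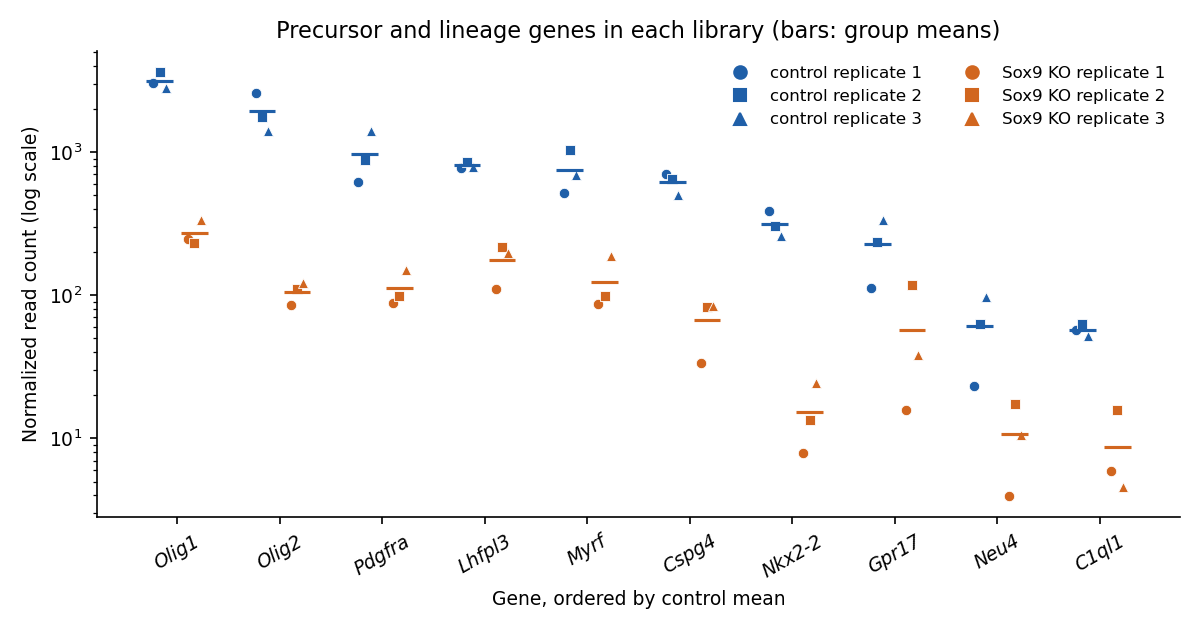
Normalized read count of each gene (log axis) in the 3 control libraries (blue) and the 3 Sox9 KO libraries (orange), with a symbol per replicate and a bar at each group mean. The groups are apart in 9 genes, and in Gpr17 KO replicate 2 (118) sits above control replicate 1 (113).

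Of the 4 transcription factors, Nkx2-2, Olig2 and Olig1 had the 3 largest falls of the set in limma. Olig2, the basic helix-loop-helix factor that specifies the lineage, stood at 2592, 1754 and 1406 normalized counts across controls 1 to 3, against 85.4, 111 and 122 across KO libraries 1 to 3. The lowest control was thus 11.6 times the highest KO library. Its mean went from 1918 ± 609.8 to 106 ± 18.5 (SD, n = 3 each), which is −4.14 on the log2 scale (SE, the standard error, 0.22, adjusted p = 1.3e-07). Olig1, its paralog, which lies 41.1 kb further along chromosome 16, had the highest level per kb of the set. It had 3021, 3618 and 2810.4 normalized counts in the controls and 246, 233 and 333 in KO. The 2 groups were far apart, with means of 3149.8 ± 419 and 270.5 ± 54.3 (SD, n = 3 each) and a change of −3.55 on the log2 scale (SE 0.16, adjusted p = 3.9e-08). In KO, 5.52% of the control level of Olig2 and 8.59% of that of Olig1 were left. The ratio of Olig1 to Olig2 reads within a library was 1.17, 2.06 and 1.999 in the controls and 2.88, 2.10 and 2.74 in KO. Every KO ratio was above every control ratio, with an exact permutation p of 0.1, the smallest that 3 libraries against 3 allow, and 0.3 after adjustment over 6 ratios chosen once the values were known.

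The homeodomain factor Nkx2-2, which promotes the step from precursor to oligodendrocyte, had the largest limma fold change of the set. Control reads numbered 266, 439 and 163 and KO reads 8, 34 and 16, or 389, 302 and 257 against 7.94, 13.4 and 24.3 normalized counts. No KO library came near a control, and the log2 fold change was −4.40 (SE 0.39, adjusted p = 4.2e-06). Its distance from Olig2 was less than its SE, and quantile normalization brought it to −3.70 against −3.80 for Olig2. Exons of Nkx2-2 share 278 bases with the antisense gene Nkx2-2os, with 48, 75 and 53 control reads and 0, 14 and 2 KO reads, and since the strand setting of the counting is not given, reads of that stretch cannot be assigned. Myrf, the membrane-bound factor that turns on myelin genes, had 519, 1029.5 and 692 normalized counts in the controls and 87.4, 98.7 and 187 in KO. Control replicate 2 was the highest of the controls and KO replicate 3 the highest of the KO libraries, and the groups did not overlap. The log2 fold change of Myrf was −2.60 (SE 0.31, adjusted p = 4e-05), the smallest among these 4 factors.

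Both Olig genes lie on the plus strand of chromosome 16 in GRCm38, the assembly also named mm10, Olig2 from 91225550 to 91228677 and Olig1 from 91269769 to 91271939. Nkx2-2 lies on the minus strand of chromosome 2, from 147176485 to 147195434, and Myrf on the minus strand of chromosome 19, from 10208271 to 10240777. Sox9 encodes a SOX factor and the set fell together, so the 250 bases before the RefSeq start were searched on both strands for the SOX cores ACAAAG and ACAATG. Of 32851 such windows in the RefSeq table, 25.2% held either core (16.5% ACAAAG and 10.7% ACAATG). Windows were found for 6 members, namely Pdgfra, Cspg4, Neu4, Lhfpl3, Olig2 and Nkx2-2, and 1 of the 6, that of Olig2, held a core. The Nkx2-2 window, chr2:147186403-147186652, lies inside the span of the gene given above, so it is not upstream of the whole gene. The core in the Olig2 window reads as CATTGT, the reverse complement of ACAATG. This core starts 68 bases before the RefSeq start of Olig2, inside a transcript that GENCODE begins at 91225457. The 30 bases around it, at chr16:91225470-91225499 on the plus strand, are shown with the core in capitals because they hold the only such match in the 6 windows searched.
Olig2 window: ccaggaaaagcaCATTGTtcccgccccccg

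The E-box CAGCTG, a letter string that basic helix-loop-helix factors can bind, was searched in the same way. It occurred in 4271 of the 32851 windows and, among the 6, in that of Lhfpl3, 158 and 149 bases before the RefSeq start. All 250 bases of the Lhfpl3 window lie in GENCODE exons. No match overlapped another. A match describes letters only, and the missing entries of Olig1, C1ql1, Gpr17 and Myrf were not searched elsewhere.

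Cell-surface markers of precursors fell about as far as Olig1. Pdgfra encodes the receptor through which PDGF-A keeps precursors dividing. It had 619.6, 882 and 1390.2 normalized counts across controls 1 to 3, against 88.4, 98.3 and 150.4 in KO. Controls thus differed among themselves by a factor of 2.24, and the lowest control was still 4.12 times the highest KO library. The means were 964 ± 392 and 112 ± 33.3 (SD, n = 3 each), a change of −3.05 on the log2 scale (SE 0.29, adjusted p = 7.5e-06). Cspg4 encodes NG2, the proteoglycan core protein after which precursors are often named. It had 700.0, 650.3 and 503 normalized counts in the controls and 33.8, 82.5 and 83.6 in KO. The groups were well separated, with means of 618 ± 103 and 66.6 ± 28.5 (SD, n = 3 each) and a change of −3.29 on the log2 scale (SE 0.33, adjusted p = 1e-05).

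Both genes are also transcribed outside the lineage, Cspg4 in the mural cells of vessels and Pdgfra in fibroblasts. Of 10 mural markers 5 were called lower and none higher, and their summed level was 4509.6 to 5104 in the controls and 933 to 1399 in KO. Notch3 and Vtn, with the highest mean counts of the list, had log2 fold changes of −5.12 and −0.69, while the contractile genes of smooth muscle in the list, Acta2, Tagln and Myh11, had values of 1.162, 0.38 and 0.01 and were not called, although every KO library was above every control in Acta2 (adjusted p = 0.083). None of 6 fibroblast markers was called, and their summed level was 868 to 1533 in the controls and 628 to 974 in KO. No marker of either list was at 0 throughout KO, and their part in the changes of Cspg4 and Pdgfra was not tested.

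Pdgfra lies on the plus strand of chromosome 5, from 75151322 to 75198206, and Cspg4 on the plus strand of chromosome 9, from 56865104 to 56899870. The window before the Pdgfra start, chr5:75152001-75152250 in GRCm38.p6 from RefSeq, is shown as the upstream sequence of the receptor that defines precursors. It lies inside the span of the gene, after the first base that RefSeq gives it, overlaps no GENCODE exon and holds none of the letter strings searched, so that no base is in capitals.
Pdgfra window: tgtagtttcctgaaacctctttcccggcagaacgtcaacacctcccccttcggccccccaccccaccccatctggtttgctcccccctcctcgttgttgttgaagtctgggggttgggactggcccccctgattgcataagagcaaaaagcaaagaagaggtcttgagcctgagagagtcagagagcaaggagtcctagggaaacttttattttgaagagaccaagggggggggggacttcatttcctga

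The remaining members mark precursors or their first committed stage. Lhfpl3 lies on the plus strand of chromosome 5, from 22746054 to 23275597, C1ql1 on the minus strand of chromosome 11, from 102939264 to 102946716, and Neu4 on the plus strand of chromosome 1, from 94020493 to 94028334. Lhfpl3, a tetraspan membrane protein gene typical of precursors, was the steadiest among controls, with 772, 853 and 789.7 normalized counts against 111, 217 and 197 in KO. The groups did not overlap, and its change of −2.25 on the log2 scale (SE 0.23, adjusted p = 1.2e-05) was the smallest of the set in limma. Gpr17 changed less than Lhfpl3 in edgeR (−1.85 against −2.14), in DESeq2 (−1.99 against −2.19) and after quantile normalization (−1.54 against −1.88). C1ql1, a secreted C1q-like protein gene, was sparsely covered, with 39, 91 and 33 control reads against 6, 40 and 3 KO reads. As normalized counts these were 57.0, 62.6 and 52.0 against 5.96, 15.8 and 4.56. All controls were higher than all KO libraries, and the log2 fold change was −2.75 (SE 0.49, adjusted p = 0.00063), or −1.95 after quantile normalization.

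Gpr17 and Neu4 had the widest spread. Gpr17, a G protein-coupled receptor of committed precursors, had 113, 237 and 337 normalized counts in the controls and 15.9, 118 and 37.98 in KO. KO replicate 2 was above control replicate 1, so that this was the member whose groups overlapped. Its means were 229 ± 113 and 57.2 ± 53.5 (SD, n = 3 each), with a change of −2.29 on the log2 scale (SE 0.63, adjusted p = 0.0095). The change was −1.62 without KO replicate 1 and −3.03 without KO replicate 2, and the call was lost without control replicate 3 (−1.94, adjusted p = 0.051). Exons of Gpr17 share 188 bases with those of Lims2 on the other strand, which had 71.6, 64.7 and 97.7 normalized counts in the controls and 19.9, 47.8 and 22.8 in KO. Neu4, a sialidase gene, had 23.4, 62.6 and 97.7 normalized counts in the controls, or 16, 91 and 62 reads, and 3.97, 17.4 and 10.6 in KO, or 4, 44 and 7 reads. The groups did not overlap, but the lowest control was 1.35 times the highest KO library, and the log2 fold change was −2.39 (SE 0.63, adjusted p = 0.0074). Quantile normalization left −1.54 for Gpr17 and −1.61 for Neu4, both still called.

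**Figure D2:**
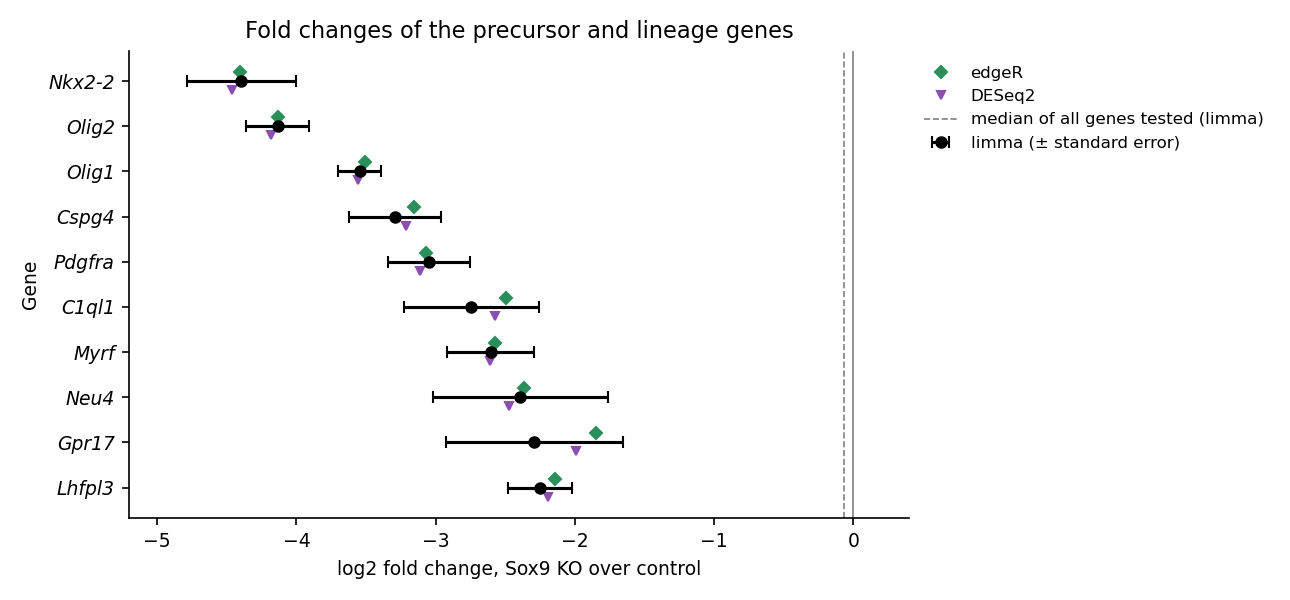
Log2 fold change of KO over control for each gene, with limma's value and its standard error (black), edgeR (green) and DESeq2 (purple) on the recovered reads, and the median of all genes tested as a dashed line. Nkx2-2 (−4.40) and Olig2 (−4.14) have the lowest limma values, and Gpr17 and Neu4 carry the longest error bars (0.63 each).

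Levels of the 10 genes were compared with one another per kb of exonic length, from GENCODE. In control, Olig1 stood highest at 1457 ± 194 normalized counts per kb, followed by Olig2 at 758 ± 241 and Lhfpl3 at 250.4 ± 13.2 (SD, n = 3 each). The ranges of these 3 genes did not overlap one another. Nkx2-2 (109.9 ± 23.3), Pdgfra (96.1 ± 39.1) and Myrf (87.2 ± 30.3) came next and could not be ordered beyond their spread. The same held for Cspg4 (51.8 ± 8.595), Gpr17 (44.1 ± 21.7) and C1ql1 (38.8 ± 3.60). The range of Gpr17 (21.7 to 64.9) also overlapped those of Pdgfra (from 61.8) and Myrf (from 60.6). Neu4 was lowest at 13.2 ± 8.02 normalized counts per kb. In KO, Olig1 was still highest at 125 ± 25.1 normalized counts per kb. Lhfpl3 (54.5 ± 17.5) and Olig2 (41.8 ± 7.33) followed with overlapping ranges. Nkx2-2, at 5.30 ± 2.90, went from the fourth place in control to the ninth in KO, although from Myrf (14.5 ± 6.36) down to Neu4 (2.30 ± 1.44) the ranges of neighbours overlapped.

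Within each group, the genes did not all vary in the same libraries. Among controls, Pdgfra, Gpr17 and Neu4 were lowest in replicate 1 and highest in replicate 3, whereas Olig2, Nkx2-2 and Cspg4 were highest in replicate 1 and lowest in replicate 3. Mature myelin genes summed to 40106, 73796 and 64381 normalized counts in control replicates 1, 2 and 3, so that replicate 1 was lowest there too. The ratio of Pdgfra to Olig2 reads was accordingly 0.239, 0.503 and 0.989 in the controls, a wider spread than the 1.03, 0.889 and 1.24 of the KO libraries, and the groups overlapped (exact permutation p = 0.2, adjusted 0.4).

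Among KO libraries, replicate 1 had the lowest value in 8 of the 10 genes, and Olig1 (lowest in replicate 2) and C1ql1 (lowest in replicate 3) were the exceptions. KO replicate 2 stood out in C1ql1, Gpr17 and Neu4, by 0.96, 1.47 and 0.85 above the KO mean on the log2 scale. In Pdgfra, Olig1, Myrf and Nkx2-2 it was below that mean, at −0.15, −0.20, −0.25 and −0.04. Gpr17 reads per Pdgfra read were 0.182, 0.269 and 0.243 in the controls and 0.1798, 1.197 and 0.253 in KO. A single library thus carried a ratio far above the other 5, with an exact permutation p of 0.7 between groups. Other precursor genes with the same high library were Pcdh15, with 41.7, 98.3 and 28.9 normalized counts in KO, and Tnr, with 64.5, 195 and 107.9. Mog, a mature myelin gene, was highest instead in KO replicate 3, with 33.8, 49.3 and 141. These 3 genes were picked after their values were seen. The high library was not particular to precursor genes. Across KO libraries 1 to 3, neuron markers summed to 2744, 4653 and 2677, and olfactory ensheathing markers to 1222, 2630 and 2101. Astrocyte markers summed to 31861, 40648 and 34512. Mural, fibroblast, endothelial and microglia markers were not highest in KO replicate 2.

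**Figure D3:**
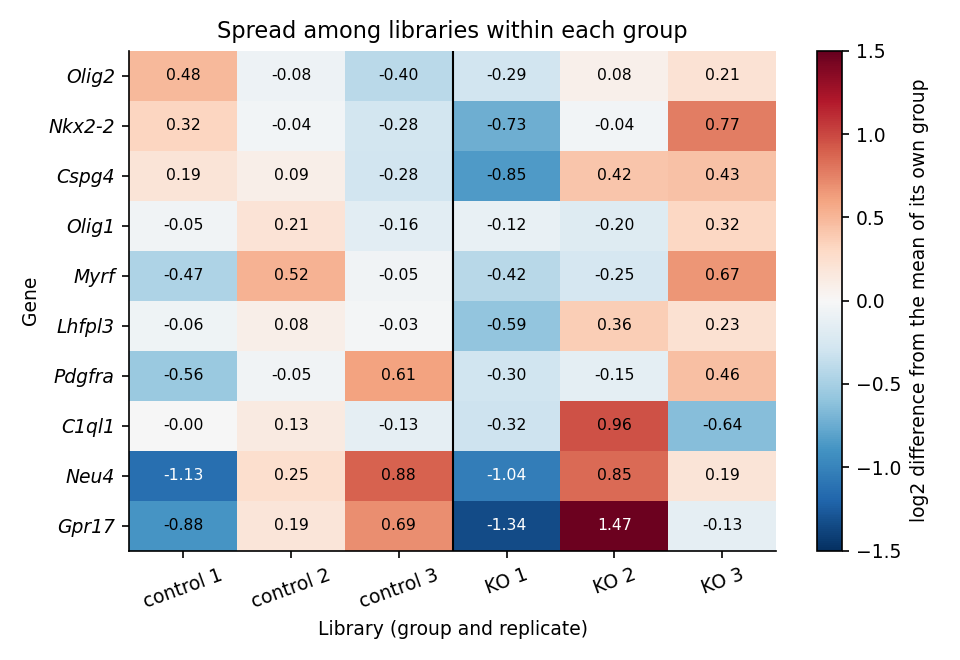
Log2 difference of each gene in each library from the mean of its own group, control on the left and Sox9 KO on the right. Control replicate 1 is high for Olig2 (0.48) and low for Neu4 (−1.13), and KO replicate 2 is high for Gpr17 (1.47).

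Lists of other genes of the lineage were then counted in the same fit. Of 15 other precursor markers, 13 were called lower and none higher, with a median log2 fold change of −2.88. Ptprz1, a receptor phosphatase shared with astrocytes, went from 85603 ± 4822 to 4895 ± 876 normalized counts (SD, n = 3 each), or −4.14 on the log2 scale. Epn2, an endocytic adaptor, and Vcan, the matrix proteoglycan versican, had log2 fold changes of −2.64 and −2.42. The 2 that were not called were Megf11 and Susd5. Megf11 went the other way, at 313 ± 49.0 in control and 438 ± 17.4 in KO, with every KO library above every control. Its log2 fold change of 0.49 (adjusted p = 0.018 in limma) stayed under the 1.5-fold limit. The KO libraries of Susd5 stood at 0.993, 31.2 and 1.52.

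Of 14 other transcription factors of the lineage, 13 were called lower and 1, the chromatin remodeller Chd7, was called higher, with 3035 ± 73.2 and 8249.5 ± 793 normalized counts (log2 fold change 1.44). The median was −2.38. Sox8 and Sox10 are the closest relatives of Sox9 and act within the lineage. Sox8 had 2440.4, 2122 and 1819 normalized counts in the controls and 220.4, 308 and 325 in KO, a change of −2.91 on the log2 scale (SE 0.17, adjusted p = 2e-07). Sox10 had 355, 575 and 374 in the controls and 108, 199 and 181 in KO, a change of −1.43 on the log2 scale (SE 0.27, adjusted p = 0.0009). Both were separated between the groups, and 13 of the 14 factors had no overlap, Chd7 with KO above control. Over all genes tested, 34.7% had every KO library below every control and 32.4% had every KO library above. Exons of Sox8 share 329 bases with the antisense gene 2810468N07Rik, which went from 231, 198 and 266 to 28.8, 75.8 and 83.6 normalized counts. Sox10 is also made by olfactory ensheathing cells, glia of the olfactory nerve, for which 4 of 5 markers were called lower and the summed level was 3545 to 4742 in the controls and 1222 to 2630.3 in KO. The part of those cells in the value of Sox10 was not tested. Id2, an inhibitor of basic helix-loop-helix factors, fell by 1.13, and Id4 fell by 2.86. In single-cell data of the bulb, the paper detected Id4 only in astrocyte clusters and Id2 in several cell types. The list is thus not restricted to the lineage, and the part of other cells in its counts was not tested.

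Of 8 genes of the committed and newly formed stages, 3 were called lower and 2 higher, with a median of −0.73. These shares are near the 28.8% and 22.2% of all genes tested. Fyn, a kinase that promotes myelination, fell by 1.48 and Tcf7l2, a Wnt effector switched on at commitment, by 0.65. The calcium release channel gene Itpr2 had 5209 ± 199.9 normalized counts (control) and 5599 ± 492 (KO, SD, n = 3 each), or 0.10 on the log2 scale, and was not called. The third lower gene was Bcas1 (−1.11), the 2 higher genes were Rras2 and Cnksr3 (0.65 each), and Bmp4 (−0.81, adjusted p = 0.31) and Enpp6 (−1.35, adjusted p = 0.077) were also not called. The Tcf7l2 call was lost without control replicate 1 (−0.54), without KO replicate 3 (−0.47), in edgeR (−0.58) and without a filter on low values (adjusted p = 0.061).

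Mature myelin genes were lower as well. Of 16, 15 were called lower and none higher, with a median of −2.22, and Opalin (−1.35, adjusted p = 0.061) was the exception. Mbp, a myelin membrane protein gene, and Cnp, an enzyme gene of myelin, fell by 1.09 and by 1.18. Both were named for their high counts, and theirs were the smallest falls of the list. The largest were those of Mog (−3.00) and Cldn11 (−2.93). Summed over the list, the level in KO was 34.5% of control, against 10.7% for the 10 lineage genes.

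**Figure D4:**
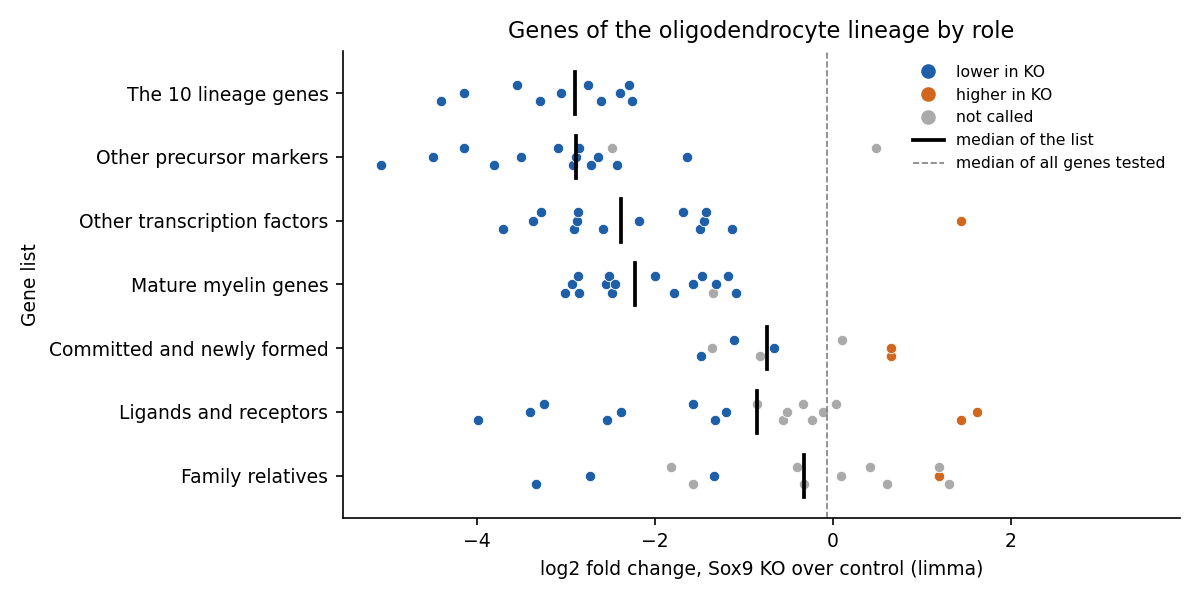
Log2 fold change of each gene tested in 7 lists of the oligodendrocyte lineage, coloured by call, with the median of each list as a black bar and the median of all genes tested as a dashed line. The 10 lineage genes (−2.90) and other precursor markers (−2.88) have the lowest medians, and the family relatives (−0.33) the median nearest to that of all genes.

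Signals that act on precursors did not move as a block. Of 17 ligand and receptor genes, 8 were called lower, 2 higher and 7 were not called, with a median of −0.84. Pdgfa, a ligand of Pdgfra, had 463, 720.5 and 810.2 normalized counts in the controls and 515, 620.2 and 519.6 in KO. The groups overlapped, and the log2 fold change was −0.23 (SE 0.20, adjusted p = 0.33). Notch1, a receptor that holds back differentiation, kept 43.4% of its control level. The growth factor gene Igf1, which microglia also make, rose from 3575 ± 492 to 10016 ± 3237 normalized counts (SD, n = 3 each), a change of 1.44 on the log2 scale. The other gene called higher was Pdgfb (1.62). Adgrg1, an adhesion receptor gene that acts in precursors, had 17851 ± 3052 and 14243 ± 2423 and was not called (−0.33, adjusted p = 0.088). It was called lower after quantile normalization (−0.95) and with totals without Rn45s (−0.65). Its control mean was far above the 964 of Pdgfra, and which of the sorted cells its reads came from was not tested.

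Of 15 family relatives of the members, 13 passed the filter, 3 were called lower and 1 higher, with a median of −0.33. The lower share is near the 28.8% of all genes tested. The lysosomal sialidase gene Neu1 rose from 647 ± 28.04 to 1482 ± 97.5 normalized counts (SD, n = 3 each), a change of 1.19 on the log2 scale, while Neu3 had a log2 fold change of 0.09 and was not called. Pdgfrb, the second PDGF receptor gene and a mural marker, fell by 3.33. Lhfpl2 was higher by 0.42 and stayed under the 1.5-fold limit, whereas Lhfpl4 (−2.72) and Lhfp (−1.34) were called lower. C1ql3 had 30.03 ± 7.37 and 24.1 ± 8.10 and was not called. Olig3 was listed at 0 in every library.

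The rest of the sorted cells differed between groups too. All 10 astrocyte markers were called lower, and Slc1a2 and Slc1a3, the glutamate transporter genes, had log2 fold changes of −4.30 and −2.72. Of 10 neuron markers 9 were lower, with a summed level of 19094 to 26159 against 2677 to 4653, and Snap25 and Syt1 fell by 2.51 and by 2.75. All 10 microglia markers were called higher, among them Csf1r (1.995). Of 7 endothelial markers, 2 were called lower, Cldn5 (−0.90) and Ly6c1 (−1.86), and 2 higher, Flt1 (0.80) and Kdr (1.09), with a median of −0.53 and shares near the 28.8% and 22.2% of all genes. As ratios of control to KO, the sums were 9.36 for the 10 lineage genes, 13.4 for astrocyte markers, 6.59 for neuron markers, 4.13 for mural markers and 2.90 for mature myelin genes. None of the listed markers of these types was at 0 throughout KO, and their part in the fall of the lineage genes was not tested.

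**Figure D5:**
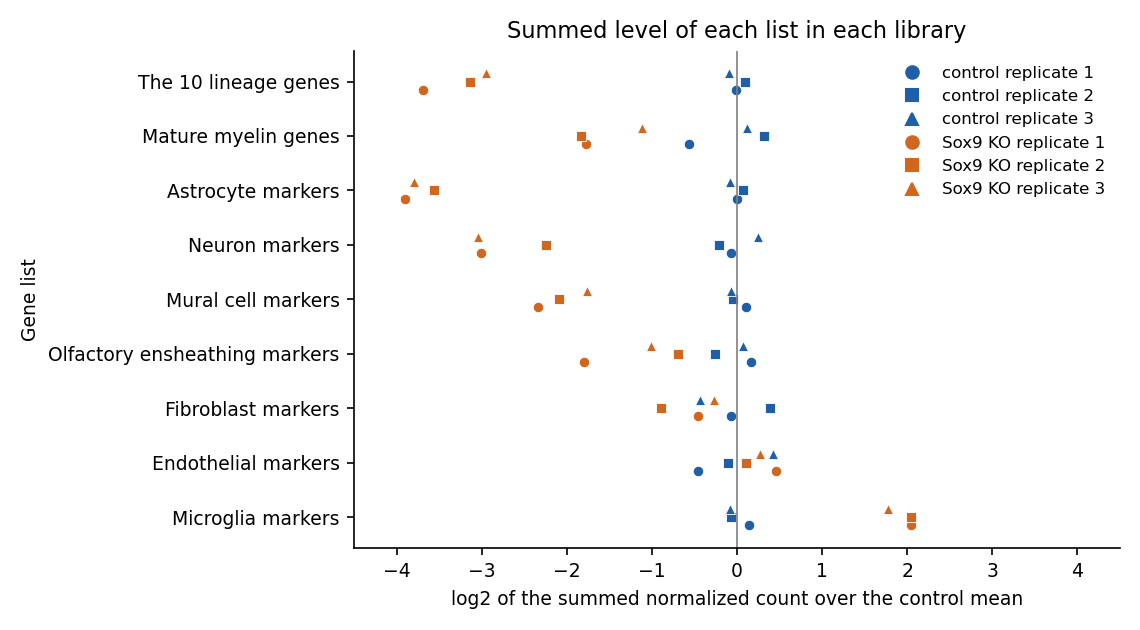
Log2 of the summed normalized count of each list over its control mean, with a symbol for each of the 6 libraries. The lineage and mature myelin genes and the astrocyte, neuron, mural and olfactory ensheathing markers lie below control in all 3 KO libraries. Microglia markers lie above it, and fibroblast and endothelial markers overlap it.

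Finally, genes with the most similar profile over the 6 libraries were looked up among 11926 genes with a mean of at least 100, by the root mean square distance of centred log2 values. For Pdgfra they were Il1rapl1 (0.22), St6galnac3 (0.23) and Rnf182 (0.24), all with control replicate 1 lowest among the controls. For Olig2 they were Efs (0.10), Frmpd1 (0.11) and Rgma (0.12), and each of these, like Olig2, was highest in control replicate 1 and lowest in control replicate 3. Libraries are shared by all these values, so the distances describe these 6 libraries only.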

How the data were processed

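RNA-seq libraries of sorted olfactory bulb cells were analysed from the tables that the authors deposited. The authors mapped reads onto mm10 using STAR 2.5.0a (version per the labels), obtained gene counts through GenomicAlignments and scaled these by DESeq2. Annotation and strandedness were not given in the sources used here. Deposited signal values are named RPM but are reads divided by 1 size factor per library: 100% were whole multiples of a step within 0.01 read, including KO replicate 1, whose step is close to 1.

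Genes with a mean of at least 1 (18413, with 6008 left out) entered a limma 3.58.1 fit (R 4.3.3) of log2(value + 1) with a variance trend, and p-values are two-sided and Benjamini-Hochberg adjusted over all genes tested. The added 1 pulls fold changes of low genes towards 0, and as differences of mean logs they can still exceed those of edgeR or DESeq2. edgeR 4.0.16 and DESeq2 1.42.0 were run on recovered reads. On simulated data for this comparison (18131 genes, 200 changed by 1 on the log2 scale), 144 were recovered by limma, 153 by edgeR and 157 by DESeq2, all in the right direction.

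Members and lists were chosen with earlier results of these data known. Genes named are the 10 members, Sox9, Sox10, Sox8, Pdgfa, the 3 genes of each lineage list and at most 2 of each marker list with the highest mean normalized count, not corrected for length; others were named after their values were seen, and some genes that this rule would name are not reported here. Each mouse counts as 1 replicate, and counting error alone is covered by the read numbers. Positions come from RefSeq (GRCm38.p6) and exonic lengths from GENCODE M21.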

Additional observations from a re-analysis of the deposited data

How the results depend on the processing

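In 20 alternatives (pseudocount, filter, scaling, variance model, tool, threshold, replicate block and each library left out, with total scaling without Rn45s added after seeing the data), between 8 and 10 of the 10 genes were called lower and none higher. Gpr17 lost its call without a filter (adjusted p = 0.1), in limma without the trend (0.055) and without control replicate 3 (0.051), and Neu4 lost it without a filter (0.069). The median of the 10 genes moved to −2.39 after quantile normalization and lay between −3.12 and −2.73 with each library left out. Calls over all genes numbered 9389, and 8768 to 9137 with each library left out. Itpr2 changed sign with equal totals (−0.14), after quantile normalization (−0.30) and with totals without Rn45s (−0.23), and the cause was not tested. Same-numbered libraries did not deviate together (correlations −0.05, −0.01 and −0.01). With 3 libraries per group this cannot decide whether same-numbered libraries were prepared together, and the labels do not say. With the replicate block there were 9275 calls, and 10 members were lower. Depth limits C1ql1, Neu4 and Nkx2-2, which rest on 3 to 44 reads in a KO library.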
